A study of Mus musculus with 4 samples.

Results

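Kruppel-like factors are zinc finger transcription factors, encoded by the Klf genes. The 10 genes Klf2, Klf3, Klf4, Klf6, Klf7, Klf9, Klf10, Klf11, Klf12 and Klf13 were followed here, chosen by name among the 53379 genes of the table of FPKM values (fragments scaled by transcript length and by library size). Each was a single row and protein-coding. The table held 17 rows named Klf and a number, and the 10 genes made up 98.9% to 99.4% of the summed FPKM of those rows in the 4 libraries.

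RNA was sequenced from group 3 innate lymphoid cells (ILC3s) of the small intestinal lamina propria in mixed bone marrow chimeras. All donors were Rag1-/- and carried Smarca4 f/f alleles, and the donors of Brg1-deficient cells also carried a Cre transgene. Marrow of both kinds was mixed and given to irradiated Rag2-/-Il2rg-/- recipients, and ILC3s were sorted 6 to 7 weeks later as Thy1.2 high, CD45 low cells, Thy1.1-negative for the Brg1-sufficient (WT) and Thy1.1-positive for the Brg1-deficient (KO) origin. There were 2 libraries of each group, called biological duplicates by the authors, and neither the labels nor the methods give the number, age or pooling of the recipients. Genotype, Cre and the congenic marker cannot be told apart in this design. Smarca4, the gene that encodes the chromatin remodeller Brg1, was at 17.1 and 16.7 FPKM in the WT and at 9.98 and 9.03 FPKM in the KO libraries, a KO mean of 56.2% of WT (log2 fold change -0.77, standard error, SE, 0.164, adjusted p = 0.153 by limma, 0.543 without KO library 1 and 0.59 without KO library 2). Values per exon were not analysed here, so transcripts of the recombined allele are included.

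KLF proteins bind GC-rich and CACCC sequences through 3 similar zinc fingers near the C-terminus, and differ in the N-terminal part that recruits cofactors. KLF2, KLF4, KLF6 and KLF7 are mainly known as activators, although KLF4 also represses. KLF3 and KLF12 repress through the corepressor CtBP, and KLF9, KLF10, KLF11 and KLF13 can bind the corepressor Sin3. In lymphocytes KLF2 is best known for quiescence and for the expression of trafficking receptors such as S1pr1, and KLF10 as a gene induced by TGF-beta.

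The sequences upstream of 4 members are shown because these 4 carry the contrasts described below: Klf2 had the largest higher mean among the members tested, Klf3 was the only member past the list criteria given below, Klf6 was by far the most abundant, and Klf13 had the largest lower mean. RefSeq promoter windows on GRCm38.p6 (250 bases before and 50 after the start) were found for 9 of the 10 members, Klf10 being the exception. Each stretch below runs 5′ to 3′ on the strand of the gene and ends before both the RefSeq and the GENCODE start. Capitals mark matches on either strand to CACCC, to the GC box GGGCGG, or to the MEF2 pattern of CTA, 4 free bases and TAG, and neighbouring matches run together. The stretches are chr8:72318812-72319032 for Klf2, chr5:64803271-64803387 for Klf3, chr13:5861239-5861481 for Klf6 and chr7:63938916-63939165 for Klf13, the last on the minus strand and the others on the plus strand.
Klf2: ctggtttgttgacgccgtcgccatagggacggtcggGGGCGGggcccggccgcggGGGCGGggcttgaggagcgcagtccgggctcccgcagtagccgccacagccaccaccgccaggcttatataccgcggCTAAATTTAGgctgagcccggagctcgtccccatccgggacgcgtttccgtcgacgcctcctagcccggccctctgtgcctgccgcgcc
Klf3: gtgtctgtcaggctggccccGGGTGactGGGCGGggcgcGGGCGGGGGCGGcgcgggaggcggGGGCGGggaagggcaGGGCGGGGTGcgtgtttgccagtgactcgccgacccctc
Klf6: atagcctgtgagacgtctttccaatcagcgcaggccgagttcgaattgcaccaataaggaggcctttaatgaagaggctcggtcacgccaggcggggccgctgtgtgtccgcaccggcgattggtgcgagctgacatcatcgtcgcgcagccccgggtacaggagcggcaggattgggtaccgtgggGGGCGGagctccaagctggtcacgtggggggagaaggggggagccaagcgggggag
Klf13: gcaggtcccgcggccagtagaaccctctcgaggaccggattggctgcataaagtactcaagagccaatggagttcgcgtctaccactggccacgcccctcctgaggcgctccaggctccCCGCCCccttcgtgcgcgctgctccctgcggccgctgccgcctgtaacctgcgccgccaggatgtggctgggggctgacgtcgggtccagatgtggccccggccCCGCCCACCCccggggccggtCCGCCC

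Over the full 300-base windows, 7 of the 9 members held a GC box, against 35.7% of the 32851 promoter windows in the table, and 6 held CACCC, against 57.5%. Klf3 had the most GC boxes of the members, 6 in its window and 5 in the stretch printed. Klf9 and Klf12 held no GC box. The MEF2 pattern was found in Klf2 only, as CTAAATTTAG at chr8:72318944-72318953, and in 3.69% of all windows. MEF2 factors are known activators of Klf2 downstream of the kinase ERK5, and their levels are given further on. These matches describe letters, not bound sites.

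Klf6 dominated the family. It was at 864 and 735 FPKM in the WT and at 1014 and 956 FPKM in the KO libraries, which was 76.7% and 78.3% of the summed level of the 10 members in WT and 81.6% and 78.9% in KO. Its mean level was higher than or equal to that of 99.4% of the 14739 genes tested. In WT, Klf4 (54.5 ± 22.2 FPKM, SD, n = 2), Klf13 (54.3 ± 8.15), Klf10 (42.9 ± 10.5) and Klf7 (37.7 ± 2.14) followed, and the ranges of neighbours in this order overlapped from Klf4 down to Klf7. Klf3 (16.1 ± 3.15 FPKM) lay below these and above Klf11 (10.1 ± 1.18), with no overlap on either side. The ranges of Klf11, Klf9 (9.14 ± 3.79 FPKM) and Klf2 (8.71 ± 0.764) overlapped from one to the next. Klf12 was the lowest at 0.13 ± 0.0707 FPKM. In KO the order changed in 2 places, Klf10 (58.6 ± 1.53 FPKM) standing second and Klf2 (14.2 ± 4.74) seventh, but the range of Klf10 overlapped that of Klf4 (54.2 ± 11.8) and the range of Klf2 overlapped that of Klf11 (12.7 ± 1.14).

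**Figure D1:**
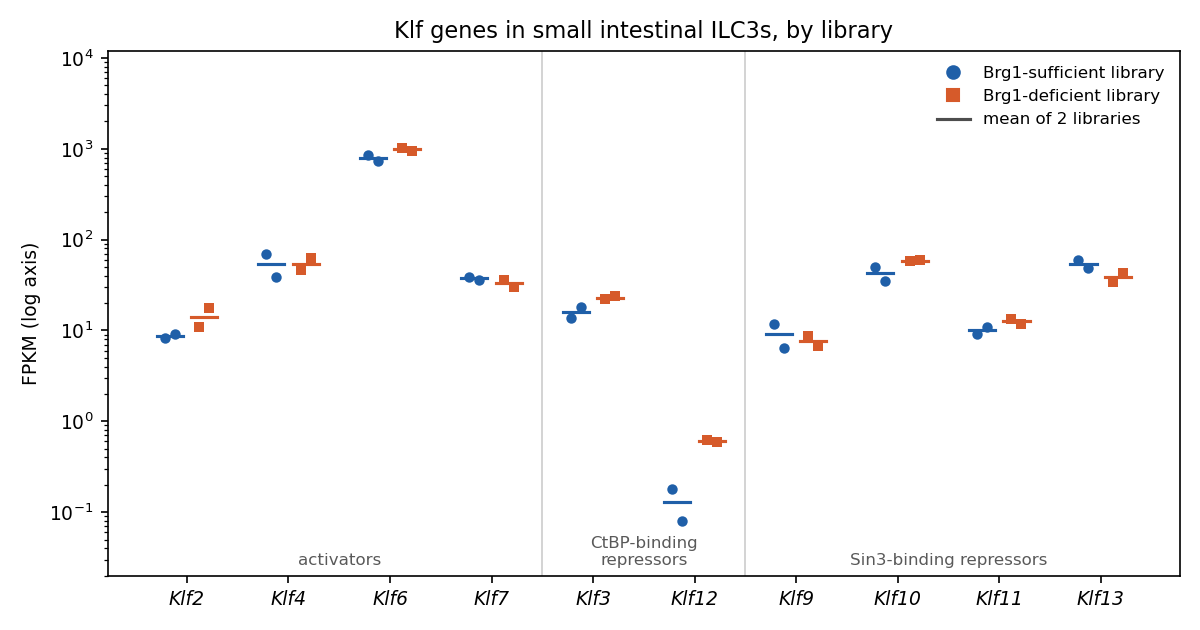
FPKM on a log axis of the 10 Klf genes in each library, ordered by the class of protein they encode. Circles are the 2 Brg1-sufficient and squares the 2 Brg1-deficient libraries, and bars are means. Klf6 lies between 735 and 1014 FPKM in all 4 libraries, and Klf12 below 1.

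Summed over the 10 members, the level was 1127 and 939 FPKM in WT and 1244 and 1212 FPKM in KO. Without Klf6 the sums were 263 and 204 FPKM in WT and 229 and 256 FPKM in KO, and the groups overlapped. The 2 WT libraries differed in several members. WT library 1 was 1.81-fold above WT library 2 for Klf4, 1.83-fold for Klf9 and 1.42-fold for Klf10, while the KO libraries differed most for Klf2, by 1.62-fold.

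The comparison asked which Klf genes differ between ILC3s that keep or lose Brg1 in mixed chimeras. Of the 10 members, 9 exceeded a mean of 1 FPKM in WT or KO and were tested with limma on log2(FPKM + 1), and Klf12 was not. With p-values adjusted over all genes tested (limma, Benjamini-Hochberg), 0 of the 9 passed the threshold of 0.05, where 0.305% of all genes did. At an unadjusted p under 0.05, 1 of the 9 passed, where 12.6% of all genes did. The study tested with edgeR, and filtered genes for its gene ontology analysis by wider limits. These limits, applied here to the limma results, are called the list criteria. They are an unadjusted p under 0.05 with an adjusted p under 0.4 and a mean of more than 5 FPKM in WT or KO. The log2 ratio of means must also lie beyond 0.5. By these criteria, 1 of the 9, Klf3, was higher in KO, where 3.85% of all genes passed as higher and 8.22% in either direction. Both shares of members were near the background, and the count says nothing particular of the family.

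In 7 of the 9 tested members the 2 groups did not overlap, 5 being higher in KO (Klf2, Klf3, Klf6, Klf10 and Klf11) and 2 lower (Klf7 and Klf13). Over all genes tested the groups did not overlap in 44.6%, with 24.4% higher and 20.2% lower in KO. The median log2 fold change of the 9 members was 0.31, beside 0.03 over all genes tested. The 9 log2 fold changes ran from -0.47 to 0.62, each smaller in size on the log2(FPKM + 1) scale than that of Smarca4 (-0.77). An exact permutation test of 2 against 2 libraries cannot go below p = 0.33 for any of these genes, and limma reaches smaller values by sharing the spread across genes.

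**Figure D2:**
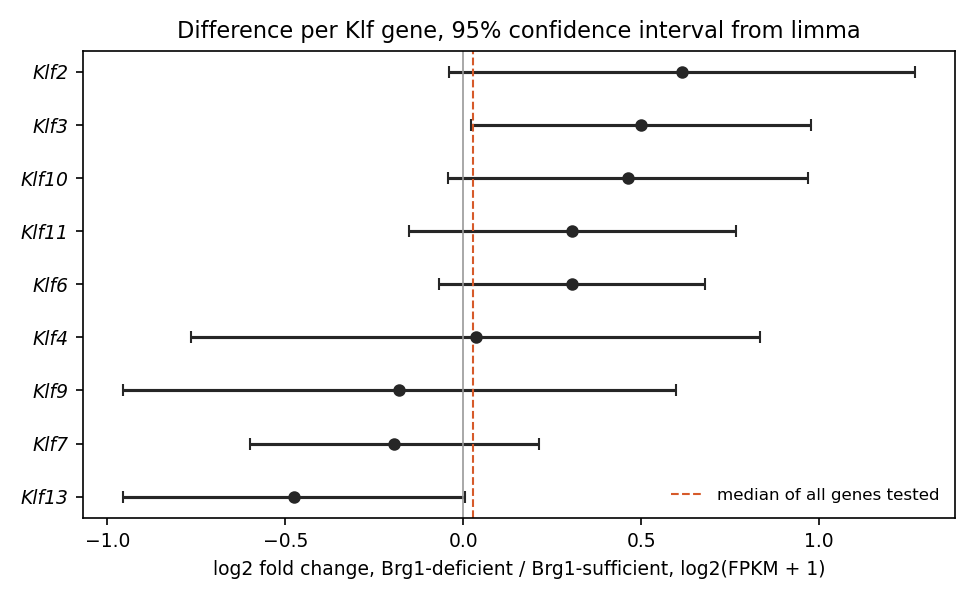
Log2 fold change of each tested Klf gene, Brg1-deficient over Brg1-sufficient, on the log2(FPKM + 1) scale, with its 95% confidence interval by limma. The dashed line is the median of all genes tested, 0.03. The interval of Klf3 (0.02 to 0.98) lies above 0, and the other 8 intervals hold 0.

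**Figure D3:**
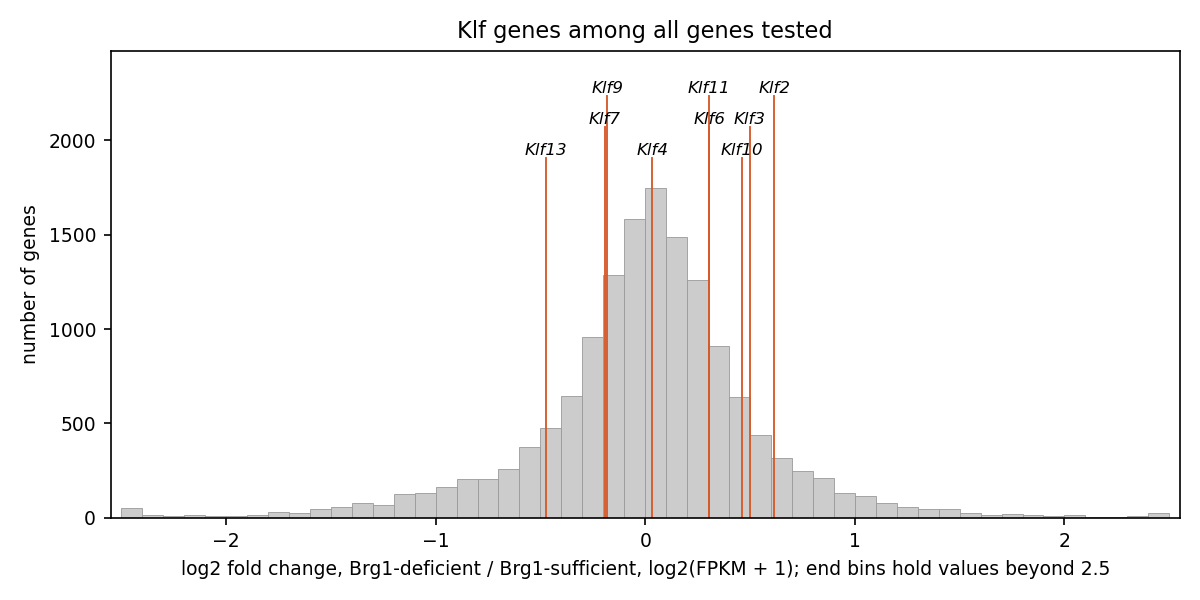
Number of genes (vertical axis) by log2 fold change (horizontal axis, bins of 0.1 with the end bins holding all values beyond 2.5) for the 14739 genes tested, with a line for each of the 9 tested Klf genes. All 9 lie within the central bulk, between -0.47 for Klf13 and 0.62 for Klf2.

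Among the members known mainly as activators, Klf2 had the largest difference. Klf2 (chromosome 8, 72319033 to 72321656, plus strand, GRCm38) was at 8.17 and 9.25 FPKM in the WT and at 10.9 and 17.6 FPKM in the KO libraries. The KO mean was 1.63-fold the WT mean. Both KO libraries were above both WT libraries, but KO library 2 stood well above KO library 1. The log2 fold change was 0.62 (SE 0.26, 95% confidence interval -0.04 to 1.27, adjusted p = 0.422 by limma). It stood higher than or equal to 90.9% of all genes tested. Without KO library 2 it was 0.29, and without KO library 1 it was 0.94.

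Klf6 (chromosome 13, 5861482 to 5870394, plus strand), first described as an injury-induced factor and a growth suppressor, had a KO mean 1.23-fold the WT mean, from the values given above. The groups did not overlap, and the log2 fold change was 0.31 (SE 0.149, adjusted p = 0.485 by limma). Because Klf6 is so abundant, this small fold was the largest difference of any member in FPKM, from a WT mean of 799.6 ± 91.3 to a KO mean of 985 ± 40.9 (SD, n = 2 each).

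Klf4 (chromosome 4, 55527143 to 55532466, minus strand), a factor of differentiation, of monocytes and of stem cell reprogramming, was at 70.2 and 38.8 FPKM in the WT and at 45.8 and 62.5 FPKM in the KO libraries. The WT libraries lay on either side of both KO libraries. Its means were almost equal and its log2 fold change was 0.03, with an interval of -0.76 to 0.83 that leaves room for a change of either sign. Klf7 (chromosome 1, 64029447 to 64122282, minus strand), best known in neurons and in adipocyte differentiation, was at 39.2 and 36.2 FPKM in WT and at 35.9 and 29.95 FPKM in KO. The highest KO library came just below the lowest WT library. The log2 fold change of Klf7 was -0.19, with an interval of -0.60 to 0.21.

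Of the CtBP-binding repressors, Klf3 (chromosome 5, 64803388 to 64832901, plus strand), known for restraining B cell and erythroid genes, was at 13.9 and 18.3 FPKM in the WT and at 22.3 and 23.7 FPKM in the KO libraries. Both KO libraries lay above both WT libraries and close to each other. The KO mean was 1.43-fold the WT mean, and the log2 fold change was 0.50 (SE 0.19, 95% confidence interval 0.02 to 0.98, unadjusted p = 0.0433 and adjusted p = 0.377 by limma). Its log2 ratio of means, 0.51, and its adjusted p both stood just inside the list criteria, and Klf13, with a log2 ratio of -0.48 and an adjusted p of 0.404 by limma, stood just outside. Klf3 also left the list criteria when WT library 1, KO library 1 or KO library 2 was left out, with log2 fold changes of 0.31, 0.54 and 0.46.

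Klf12 (chromosome 14, 99870632 to 100284679, minus strand), first described as a repressor of an AP-2 gene, was at 0.18 and 0.08 FPKM in the WT and at 0.62 and 0.59 FPKM in the KO libraries. Both KO libraries were above both WT libraries at a level too low for the test. On the log2(FPKM + 1) scale the difference was 0.51, and with a pseudocount of 0.1 it was 1.65, so the size of this difference is set by the pseudocount. With the depth of the libraries unknown, no counting error can be given for such values.

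The 4 Sin3-binding repressors did not share a direction, with 2 higher and 2 lower means in KO. Klf10 (chromosome 15, 38291463 to 38300706, minus strand), the TGF-beta-inducible early gene, was at 50.3 and 35.4 FPKM in the WT and at 57.5 and 59.7 FPKM in the KO libraries. Both KO libraries lay above both WT libraries, and the WT libraries were further apart from each other than WT library 1 was from KO. Its log2 fold change was 0.46 (SE 0.201, 95% confidence interval -0.04 to 0.97, adjusted p = 0.437 by limma), and it was 0.22 without WT library 2 and 0.71 without WT library 1. Klf11 (chromosome 12, 24651274 to 24662789, plus strand), its close paralog, was at 9.24 and 10.9 FPKM in WT and at 13.5 and 11.9 FPKM in KO. The groups did not overlap, and the log2 fold change was 0.31 (SE 0.182).

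Klf13 (chromosome 7, 63886351 to 63938915, minus strand), known as an activator of the chemokine gene Ccl5 in late activated T cells, was the member with the largest lower mean. It was at 60.03 and 48.5 FPKM in the WT and at 34.3 and 43.3 FPKM in the KO libraries, a KO mean of 71.5% of WT. Both WT libraries were above both KO libraries. The log2 fold change was -0.47 (SE 0.191, 95% confidence interval -0.96 to 0.01, unadjusted p = 0.0519 and adjusted p = 0.404 by limma). Its value was higher than or equal to 13.6% of all genes tested. Ccl5 itself was at 70.5 and 6.88 FPKM in WT and at 4.03 and 26.3 FPKM in KO, so its groups overlapped widely. Klf9 (chromosome 19, 23141226 to 23168134, plus strand), induced by glucocorticoid and thyroid hormone in many tissues, was at 11.8 and 6.46 FPKM in WT and at 8.61 and 6.75 FPKM in KO. Both KO libraries lay between the WT libraries. Its log2 fold change was -0.18 with an interval of -0.96 to 0.60.

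GENCODE M21 on GRCm38 places other genes within 5 of the 10 members, and the methods do not state whether strand was used in counting. The antisense transcript Gm20033, which shares exon sequence with Klf3, was at 0.92 and 0.60 FPKM in WT and at 0.88 and 2.35 FPKM in KO. Gm13748, antisense to Klf7 with exon overlap, was at 0.35 and 2.13 FPKM in WT and listed at 0 in both KO libraries. Gm26649, also antisense to Klf7 with exon overlap, was listed at 0 in all 4 libraries. The others, within the spans of Klf3, Klf7, Klf9, Klf12 and Klf13, had no exon overlap and were at 0 to 9.38 FPKM. Reads from a member and its overlapping antisense gene cannot be told apart here, and the antisense levels were low beside those of Klf3 and Klf7.

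The rest of the family was scarce. Of 8 other Klf genes, 7 were in the table and 2 exceeded a mean of 1 FPKM in WT or KO. Klf16, another Sin3-binding member, was at 8.04 and 7.10 FPKM in WT and at 6.71 and 6.10 FPKM in KO, a log2 fold change of -0.21 (adjusted p = 0.68 by limma). Klf5, an activator of intestinal epithelium and proliferation, was at 3.27 and 0.66 FPKM in WT and at 0.14 and 0.47 FPKM in KO, and WT library 1 alone stood high. Klf1, Klf8, Klf14, Klf15 and Klf17 were below 1 FPKM in all 4 libraries. Among the related Sp factors, which share the same type of zinc fingers and GC box, 4 of 9 were tested and 0 passed an unadjusted p under 0.05. Sp3 was the highest at 49.5 and 44.8 FPKM in WT and 53.6 and 42.5 FPKM in KO, and Sp4, next in level, had a log2 fold change of 0.16.

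Of 8 genes of the CtBP complex, 8 were tested and 0 passed an unadjusted p under 0.05, where 12.6% of all genes did, and their median log2 fold change was -0.18. The groups did not overlap in 3 of the 8, where they did not overlap in 44.6% of all genes tested. Ctbp2, which encodes one of the CtBP proteins, was at 4.40 and 2.42 FPKM in WT and at 2.21 and 2.05 FPKM in KO, a log2 fold change of -0.46 (SE 0.312), and the deacetylase gene Hdac2 was at 5.30 and 4.86 FPKM in WT and at 3.30 and 4.54 FPKM in KO. Hdac1, the most abundant of the list, overlapped between the groups and was at 63.4 and 70.5 FPKM in WT and at 67.5 and 69.0 FPKM in KO. Of 8 genes of the Sin3 complex, 0 passed likewise, with a median of -0.03. Rbbp4 and Rbbp7, histone-binding subunits, were the highest of them, with log2 fold changes of -0.10 and -0.18, and Sin3b was at 68.2 and 79.7 FPKM in WT and at 84.9 and 72.8 FPKM in KO. The methyltransferase gene Ehmt2, next in level in the CtBP list, had a log2 fold change of 0.19. Of 4 ubiquitin ligases reported to act on KLF proteins, 0 passed an unadjusted p under 0.05, and Itch and Fbxw7, the highest of them, had log2 fold changes of 0.31 and -0.43.

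Upstream of Klf2 and Klf4 stand the kinases MEK5 and ERK5 (Map2k5 and Mapk7), the MEF2 factors and the FOXO factors. Of these 8 genes 8 were tested, 5 had lower and 3 higher means in KO, and 1 passed an unadjusted p under 0.05, where 6.47% of all genes passed as lower and 6.12% as higher. That gene was Mef2c, at 25.04 and 26.2 FPKM in the WT and at 19.5 and 14.7 FPKM in the KO libraries. Both WT libraries were above both KO libraries, and the log2 fold change was -0.57 (SE 0.189, adjusted p = 0.323 by limma), within the list criteria. Map2k5 and Mef2a, the 2 others of the list with the highest levels, had log2 fold changes of -0.12 and 0.23. Foxo1, which activates Klf2 in T cells, was at 6.67 and 6.18 FPKM in WT and at 4.92 and 4.59 FPKM in KO, groups that did not overlap, with an adjusted p of 0.514 by limma. Mef2c and Foxo1 thus had the lower mean in KO and Klf2 the higher one. Without KO library 2 the log2 fold change of Mef2c was -0.38, and it left the list criteria with any of the 4 libraries left out.

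Of 3 genes linked to KLF2 in lymphocyte trafficking, 2 had groups that did not overlap and passed an unadjusted p under 0.05, 1 lower and 1 higher, where over all genes the groups did not overlap in 44.6% and 12.6% passed. S1pr1, the receptor for egress along sphingosine-1-phosphate and a direct KLF2 target, was at 4.71 and 1.94 FPKM in the WT and at 0.56 and 0.43 FPKM in the KO libraries. The KO libraries were close together and below both WT libraries, which differed from each other by 2.43-fold. The log2 fold change was -1.46 (SE 0.414, adjusted p = 0.251 by limma), and the level was under the limit of 5 FPKM of the list criteria. Cd69, whose protein removes S1PR1 from the cell surface, was at 1046 and 1055 FPKM in WT and at 1601.7 and 1742 FPKM in KO, with a log2 fold change of 0.67 (SE 0.136, adjusted p = 0.143 by limma) that met the list criteria. Itgb7, the integrin chain of gut homing, was at 231 and 274 FPKM in WT and at 249.7 and 271 FPKM in KO, and its groups overlapped. Without KO library 1 or without KO library 2, Cd69 left the list criteria and S1pr1 did not pass an unadjusted p under 0.05. Klf2 had the higher mean in KO while S1pr1 had the lower, and Itgb7 did not separate.

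**Figure D4:**
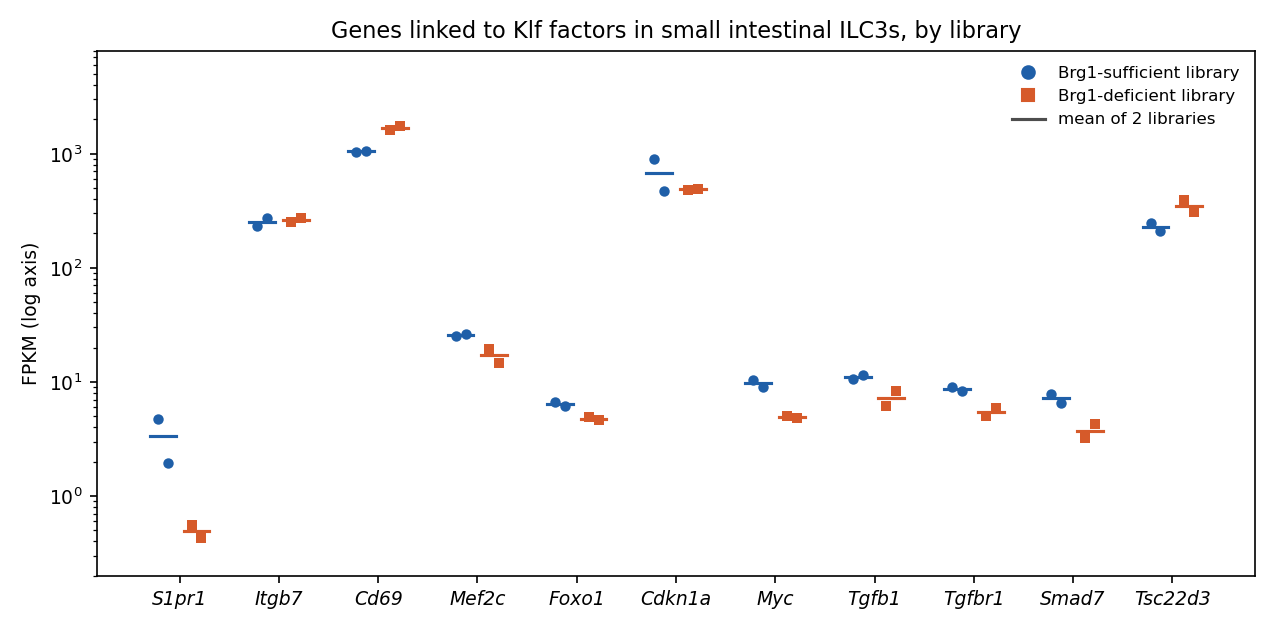
FPKM on a log axis of 11 genes linked to KLF factors or their regulation, in each library. Circles are the 2 Brg1-sufficient and squares the 2 Brg1-deficient libraries, and bars are means. S1pr1 lies below 1 FPKM in both Brg1-deficient libraries and above 1 in both Brg1-sufficient libraries, and Cd69 lies at 1046 FPKM or more in all 4.

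Of 6 cell cycle genes linked to KLF2, KLF4 and KLF6, 5 were tested and 1 passed an unadjusted p under 0.05, where 12.6% of all genes did. Myc, a growth gene that KLF2 is known to restrain, was at 10.5 and 8.97 FPKM in the WT and at 5.04 and 4.83 FPKM in the KO libraries. Its log2 fold change was -0.85 (SE 0.19, adjusted p = 0.171 by limma), within the list criteria, which it left without KO library 1 or without KO library 2. The cyclin-dependent kinase inhibitor Cdkn1a was at 892 and 474 FPKM in WT and at 484 and 491 FPKM in KO, with WT library 1 alone above the others, and Cdkn1b was at 37.4 and 27.1 FPKM in WT and at 27.7 and 23.5 FPKM in KO.

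Of 7 TGF-beta genes tied to KLF10 and KLF11, 7 were tested and 3 passed an unadjusted p under 0.05, all lower in KO and all within the list criteria, where 6.47% of all genes passed as lower and 8.22% met the list criteria in either direction. Smad7, the inhibitory SMAD that KLF10 represses, was at 7.83 and 6.57 FPKM in the WT and at 3.21 and 4.26 FPKM in the KO libraries, a log2 fold change of -0.80 (SE 0.227, adjusted p = 0.251 by limma). The ligand Tgfb1 was at 10.6 and 11.4 FPKM in WT and at 6.17 and 8.29 FPKM in KO. The receptor Tgfbr1 was at 8.98 and 8.25 FPKM in WT and at 5.05 and 5.92 FPKM in KO. Each of the 3 left the list criteria with any of the 4 libraries left out, and the log2 fold change of Tgfb1, -0.56, was -0.37 without KO library 1. In each both WT libraries were above both KO libraries, whereas Klf10 and Klf11 had the higher means in KO. Smad2 and Tgfbr2, the 2 others with the highest levels, had log2 fold changes of -0.34 and 0.03.

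Of 5 genes of the glucocorticoid response listed beside Klf9, 1 passed an unadjusted p under 0.05, where 12.6% of all genes did. Tsc22d3, the glucocorticoid-induced leucine zipper gene, was at 248 and 209 FPKM in WT and at 395 and 307 FPKM in KO, a log2 fold change of 0.61 (SE 0.181, adjusted p = 0.266 by limma). It left the list criteria with any of the 4 libraries left out. Klf9 had its KO libraries between its WT libraries. Dusp1 was at 1601.7 FPKM in both WT libraries and at 1190.1 and 1601.7 FPKM in KO. Cd69 had that same 1601.7 FPKM in KO library 1, and the ranked columns held nearly the same values. The repeated value is thus one of equal rank, not an exactly repeated measurement. Per1 was at 97.9 and 96.1 FPKM in WT and at 151 and 98.0 FPKM in KO. The glucocorticoid receptor gene Nr3c1 was at 46.8 and 29.9 FPKM in WT and at 24.4 and 26.2 FPKM in KO.

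Klf2, Klf4, Klf6 and Klf10 are also early response genes, and genes of that kind are known to be induced while tissue is digested. Of 15 early response and heat shock genes, 10 had higher and 5 lower means in KO, and 3 passed an unadjusted p under 0.05, where 12.6% of all genes did. Fos was at 2122 and 3390 FPKM in WT and at 2545 and 4026 FPKM in KO, and Junb at 2221 and 2896 FPKM in WT and at 2665 and 2606 FPKM in KO. Atf3 was at 512 and 633 FPKM in WT and at 903 and 709.6 FPKM in KO, a log2 fold change of 0.49 (adjusted p = 0.382 by limma). The heat shock genes Hspa1a and Hspa1b had log2 fold changes of -0.60 and -0.81 (adjusted p = 0.267 and 0.266 by limma), within the list criteria with all 4 libraries. Both heat shock genes left these with any of the 4 libraries left out. Their part in the levels of Klf6, Klf2 and Klf10 was not tested.

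The sorted cells expressed ILC3 genes in all 4 libraries, with Il23r, the receptor chain for IL-23, at 268 and 247 FPKM in WT and at 227 and 209 FPKM in KO. Of 7 markers of ILC2s, 6 were tested, all 6 had lower means in KO, and 4 passed an unadjusted p under 0.05, where 6.47% of all genes passed as lower. Il13 was listed at 0 in both KO libraries, and the summed level of the list was 312 and 192 FPKM in WT and 94.8 and 121 FPKM in KO. Klf7 and Klf13 among the members, and also Klf5 and Klf16, had the order of groups and of WT libraries of that sum. Over all genes tested, 20.2% had groups that did not overlap and were lower in KO. The share with the same order of WT libraries was not counted, so the match says nothing particular of these genes. Most of the ILC2 marker sum was Gata3, which ILC3s also express, at 183 and 110.0 FPKM in WT and at 74.5 and 105 FPKM in KO. Of 8 T cell markers, 5 were tested, all 5 had lower means in KO, and 3 passed an unadjusted p under 0.05. The sums of the 8 were 171 and 114 FPKM in WT and 117 and 101 FPKM in KO, most of it Lat, with a log2 fold change of -0.03. Cd3e was at 8.95 and 7.02 FPKM in WT and at 1.01 and 3.08 FPKM in KO, and Cd3g at 37.2 and 10.7 against 1.21 and 5.04 FPKM. Of 8 ILC1 or NK cell markers, 7 were tested and 6 passed an unadjusted p under 0.05 (12.6% of all genes), 4 lower and 2 higher, with sums of 235 and 319.8 FPKM in WT and 590.4 and 438 FPKM in KO. The sum follows Gzma, at 50.8 and 103 FPKM in WT and at 397 and 218 FPKM in KO, and Klrk1, whereas Ncr1 was at 31.3 and 35.5 against 5.37 and 6.02 FPKM and Ifng at 22.8 and 37.3 against 3.42 and 3.22 FPKM, both lower at an adjusted p under 0.05 by limma. Ncr1 encodes NKp46, which a subset of ILC3s also carries. The paper reports a lower share of NKp46+ cells among Brg1-deficient ILC3s of the small intestine in such chimeras. The part of ILC3 subsets and of the other cell types in the Klf values was not tested. In bulk RNA fewer cells of a type and less RNA per cell cannot be told apart. The paper describes Rag1-/- mice as lacking T and B cells, and the recipients as deficient for adaptive immune cells. The cells from which the T cell and B cell marker transcripts came were not tested. The endothelial genes Cdh5 and Kdr, from a cell type with much Klf2 and Klf4, were below 1 FPKM in all 4 libraries, and the sum of 6 endothelial or stromal markers was 65.2 and 90.4 FPKM in WT and 68.4 and 68.0 FPKM in KO. Most of that sum was Pecam1, at 62.3 and 87.9 FPKM in WT and at 65.7 and 63.97 FPKM in KO. Sums of the other lists were 941 and 1034 FPKM in WT and 854 and 1072 FPKM in KO for 7 myeloid markers, 9.90 and 10.7 against 2.54 and 1.69 FPKM for 5 B cell markers, 8.58 and 7.35 against 7.84 and 9.09 FPKM for 6 epithelial markers, and 200.1 and 265 against 86.6 and 170.0 FPKM for 5 red cell markers.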

How the data were processed

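RNA of small intestinal ILC3s was sequenced in 2 WT and 2 KO libraries. The authors mapped reads to GRCm38.p5 with STAR 2.5, quantified genes with RSEM 1.2 (GENCODE M16) and deposited FPKM per gene for each library. Ranked by size, the 4 columns held nearly the same values, within 1% of each other at 99.3% of the 13693 ranks above 1 FPKM, so any difference in total RNA is absent from them. Read counts were not used here, depth is unknown and no counting error is given.

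The 14739 genes with over 1 FPKM on average in WT or KO were tested with limma 3.58.1 in R 4.3.3 on log2(FPKM + 1), with a variance trend and Benjamini-Hochberg adjustment. Fold changes on this scale understate those of low genes. The p-values measure the spread between these libraries only. The script was tested on simulated data. Replicate numbers come from the labels, which give no batch.

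All 10 members, overlapping genes, other Klf genes and, from 12 further lists, members with an unadjusted p under 0.05 and up to 2 more of the highest level were to be named, and Foxo1, Nr3c1, Sin3b, Ctbp2, Hdac2 and the named marker genes were chosen after their values were seen. The members and lists were chosen with earlier results of these data known, and 1 listed gene is not reported here. Alternatives were the replicate number as a block, a pseudocount of 0.1, other filters, limma without trend, quantile normalization, protein-coding genes only and leaving out each library. Positions came from GENCODE M21, which held 53274 of the 53379 identifiers, and promoters from RefSeq.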

Additional observations from a re-analysis of the deposited data

How the results depend on the processing

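No member passed an adjusted p under 0.05 by limma under any alternative, the lowest being 0.2 for Klf3 without WT library 2. The number of members past the list criteria, 1, became 2 (Klf2 and Klf3) with the replicate block and with protein-coding genes only, 0 with no filter on low FPKM and in limma without trend, and 0 to 1 when each library was left out (Klf10 without WT library 1, Klf3 without WT library 2, 0 without either KO library). Neither the labels nor the methods say that libraries of the same number shared recipients, and across genes the correlation of their deviations was -0.00039, so a pairing was not shown, though it may exist. With each library left out, the log2 fold changes ran from 0.29 to 0.94 for Klf2, 0.31 to 0.69 for Klf3, 0.19 to 0.42 for Klf6, -0.32 to -0.07 for Klf7, 0.22 to 0.71 for Klf10, 0.20 to 0.41 for Klf11, 0.44 to 0.57 for Klf12 and -0.64 to -0.31 for Klf13. Klf4 ran from -0.39 to 0.45 (-0.39 without WT library 2 and -0.19 without KO library 2) and Klf9 from -0.57 to 0.21 (0.21 without WT library 1), so their signs changed. The difference of Klf12 was 1.65 with log2(FPKM + 0.1). The other alternatives moved the log2 fold change of the 9 tested members by less than 0.05. In this balanced design the replicate block, the filters, the fit without trend and the protein-coding restriction cannot move that value. The near equality of the ranked columns left almost no room for a shift by quantile normalization. Of these alternatives only the pseudocount of 0.1 was a test of the fold changes, and it took Klf2 from 0.62 to 0.66.

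Over all genes, 33 lower and 12 higher genes at an adjusted p under 0.05 became 248 and 150 with the replicate block, 73 and 41 with a mean FPKM above 5, 213 and 138 with protein-coding genes only, 0 and 0 with no filter (2708 in either direction at an unadjusted p under 0.05) and in limma without trend (1868), and 0 with each library left out (1267 to 3182). By the list criteria, 644 lower and 568 higher genes numbered 236 and 161 once all genes above 0 were kept, and 61 to 671 and 38 to 745 with each library left out, the lowest without KO library 2. With no filter 44235 genes entered the adjustment. For the remaining shifts the cause was not tested. A group left with 1 library was assumed to vary like the other.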
